A study of Mus musculus with 9 samples.

Results

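Messenger RNA of 9 genes of myelinating oligodendrocytes (*Mbp*, *Mobp*, *Mal*, *Cldn11*, *Mog*, *Mag*, *Cnp*, *Ugt8a* and *Ermn*) was examined in the hippocampus of mice that differ in the dose of IF1, the inhibitor protein of the mitochondrial ATP synthase. The genes were taken by name from the 31093 gene names printed on an Agilent mouse expression array, which reads each transcript with short DNA probes. The 9 genes had 14 probes (3 each for *Mbp* and *Mobp*, 2 for *Ermn* and 1 for each of the others), and all 14 were well above background on all 9 arrays.

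Male C57BL/6J mice of 3 genotypes, aged 9 months, were compared, with 3 mice per genotype and 1 array per mouse. IF1-KO mice carry a floxed gene of IF1 (*Atpif1* on the array) that is deleted by Cre recombinase under the *Camk2a* promoter, which is active mainly in excitatory neurons of the forebrain. IF1-TG mice carry human IF1 under a tetracycline-responsive promoter, switched on by a transactivator that is driven by the same *Camk2a* promoter. CRL mice are the controls, and the labels of the arrays do not say which of the alleles they carry. Both drivers therefore act in neurons, and the genes described here are read in a cell type that neither driver targets by design. In RNA of whole tissue, fewer oligodendrocytes and less of a transcript in each oligodendrocyte cannot be told apart.

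*Atpif1* was reduced on IF1-KO replicates 2 and 3 (log2 signal relative to the array's 75th percentile 5.20 and 5.53, against 6.19 to 6.34 in CRL) but not on the array labelled IF1-KO replicate 1 (6.43). Most differences of IF1-KO mice for the members and the oligodendrocyte lists are therefore also given with that array left out. On the IF1-TG arrays *Atpif1* was 6.42, 6.38 and 6.51 (difference from CRL mice 0.16, standard error 0.27). A higher dose in IF1-TG mice, whose transgene is human, was thus not seen on this mouse array. Spots well above background made up 71.9% to 73.6% of the spots of an IF1-KO array, 73.0% to 75.6% for CRL and 67.4% to 70.4% for IF1-TG. The arrays lay on 3 slides: slide 1 with IF1-TG replicates 1 and 2, slide 2 with CRL replicates 1 and 2 and 1 array of each other genotype (the array labelled IF1-KO replicate 1, and IF1-TG replicate 3), and slide 3 with CRL replicate 3 and IF1-KO replicates 2 and 3.

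Oligodendrocytes wrap axons in a compacted spiral of their own membrane, the myelin sheath, which speeds conduction and supports the axon. *Mbp* and *Mobp* encode small basic proteins of compact myelin, *Mal* a proteolipid of myelin membranes, and *Cldn11* the claudin of the tight junctions between the layers of the sheath. *Mog* and *Mag* encode immunoglobulin-like proteins of the outer and the axon-facing surface. *Cnp* encodes a cyclic nucleotide phosphodiesterase of non-compact myelin, *Ugt8a* the enzyme that makes galactocerebroside, the main glycolipid of myelin, and *Ermn* ermin, a cytoskeletal protein of mature oligodendrocytes.

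The probe sequences bear on the results for *Ermn*, whose probes disagree, and for *Cnp* and *Mal*, which follow it in the size of their differences. The last 30 bases of each probe are shown 5′ to 3′ as deposited, with repeats of AAG (at least 5 in a row) in capitals. Positions on mm9 come from the annotation in the files, and the *Ermn* probes lie 2916 bases apart on chromosome 2.
Ermn A_55_P2136752 (chr2:57900470-57900529, minus strand): AAGAAGAAGAAGAAGAAGAAGtttggaatg
Ermn A_55_P2060158 (chr2:57897554-57897613, minus strand): taaataaagaatttccttgtctgatttcct
Cnp A_51_P232901 (chr11:100442617-100442676, plus strand): acactgtacctagggtgatggtttcggtca
Mal A_55_P2113160 (chr2:127458976-127459035, minus strand): tcaatgtttcagatttttaatcattaaaag
The first *Ermn* probe holds AAG 7 times in a row, whereas the longest such run in the other member probes shown or examined was 1 copy. No sequence was examined for *Mbp*.

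By their brightest probes, *Ermn*, *Cnp* and *Mal* were higher on every IF1-TG array than on every IF1-KO array, and 1 of them, *Ermn*, was called in this comparison, the contrast of the highest against the lowest dose of IF1 by design. The thresholds were those of the methods of the experiment. A gene was called when the fold change was at least 1.5 and the unadjusted *P* value of limma was below 0.05, using the probe with the highest mean signal. Differences are given on the log2 scale as IF1-TG minus IF1-KO, IF1-TG minus CRL and IF1-KO minus CRL. By this rule 1 of 9 members, *Ermn*, was called (higher in IF1-TG mice), where 3.65% of the 21924 genes tested were called (354 higher and 446 lower). The arrays of the pair did not overlap for *Ermn*, *Cnp* and *Mal* (3 of 9, all higher in IF1-TG mice), where 13.4% of all genes did not overlap. The *P* value alone was met by 3 members, namely these genes, and by 1511 genes in all, and after Benjamini-Hochberg adjustment in limma 0 members and 0 genes remained. Of the 9 members, 7 had a difference above 0, with a median of 0.27 on the log2 scale (0.0064 over all genes). With the array labelled IF1-KO replicate 1 set aside, 2 of 9 members (*Ermn* and *Mal*) and 4.55% of all genes were called.

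**Figure D1:**
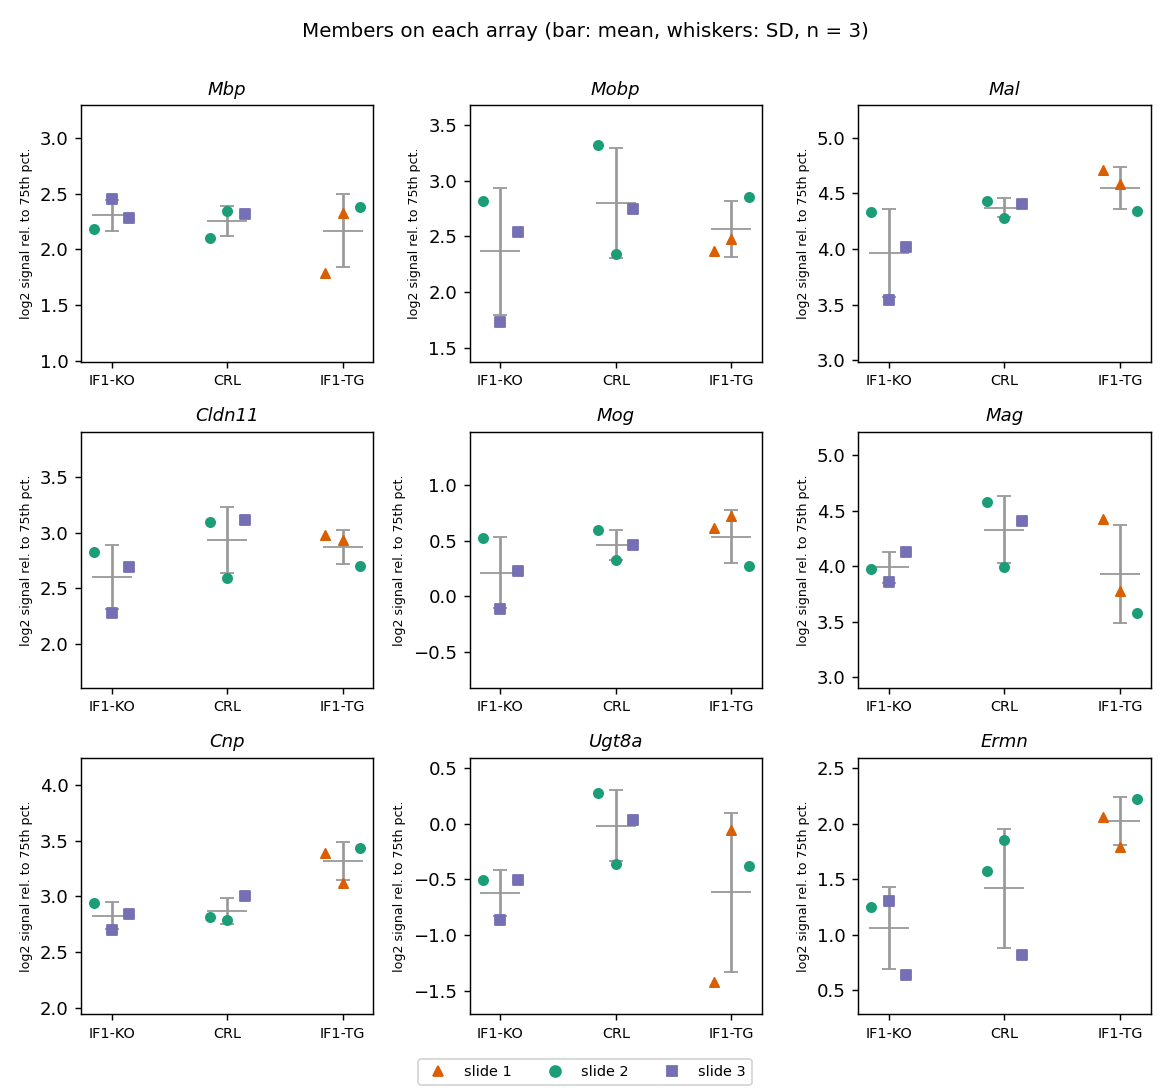
Log2 signal of each gene (y axis, relative to the array's 75th percentile, with the same span of 2.3 in every panel) by genotype, with 1 point per array, shape and colour for the slide, and bars for the mean and SD of 3 arrays. The IF1-TG points of *Cnp*, *Mal* and *Ermn* lie above all IF1-KO points, and IF1-KO replicate 2 (middle IF1-KO point) is the lowest array for *Cldn11*, *Cnp*, *Mal*, *Mobp* and *Mog*.

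*Mbp*, by its brightest probe, had a log2 signal of 2.18, 2.45 and 2.29 in IF1-KO, 2.10, 2.34 and 2.32 in CRL, and 1.79, 2.33 and 2.38 in IF1-TG mice. The genotypes overlapped, and the single low array was IF1-TG replicate 1. The difference between IF1-KO and IF1-TG mice was -0.14 (standard error 0.18, 95% interval -0.54 to 0.26), and -0.20 with the array labelled IF1-KO replicate 1 set aside. This interval did not reach a fold change of 1.5, but that of the second *Mbp* probe did (-0.041 to 0.996), as did the intervals of the other 8 members, so a change of that size was not excluded for any of the 9 genes.

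*Mobp* had one of the widest ranges, 1.59 on the log2 scale. Its values were 2.82, 1.73 and 2.54 in IF1-KO, 3.32, 2.34 and 2.75 in CRL, and 2.37, 2.48 and 2.85 in IF1-TG mice. The lowest and the highest array belonged to IF1-KO replicate 2 and CRL replicate 1, and the genotypes overlapped in every pair. The difference between IF1-KO and IF1-TG mice was 0.20 (standard error 0.33) and that between IF1-KO and CRL mice -0.44. Both grew with the array labelled IF1-KO replicate 1 set aside, to 0.43 and -0.67, and neither was called.

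*Mal* had values of 4.33, 3.54 and 4.02 in IF1-KO, 4.43, 4.28 and 4.40 in CRL, and 4.71, 4.58 and 4.34 in IF1-TG mice. All IF1-TG arrays lay above all IF1-KO arrays, although IF1-TG replicate 3 exceeded the array labelled IF1-KO replicate 1 by 0.013 only. *Mal* was 1.497-fold higher in IF1-TG mice than in IF1-KO mice (log2 difference 0.58, standard error 0.20, unadjusted *P* = 0.0179 from limma, adjusted *P* = 0.685), just under the fold change required. With the array labelled IF1-KO replicate 1 set aside, the difference was 0.77 (unadjusted *P* = 0.00362 from limma) and passed the rule, and in the same fit *Mal* was called lower in IF1-KO than in CRL mice (-0.59, unadjusted *P* = 0.0135 from limma). With that array, the latter difference was -0.41 (standard error 0.20). *Mal* also passed the rule between IF1-KO and IF1-TG mice without the third IF1-KO array (0.61) or the third IF1-TG array (0.68), whereas without IF1-KO replicate 2 the difference was 0.37 (unadjusted *P* = 0.0534 from limma) and that between IF1-KO and CRL mice -0.20. With slide as a fixed block, *Mal* differed by 0.21 between IF1-KO and IF1-TG mice (unadjusted *P* = 0.496 from limma), and with normexp and quantile normalization by 0.42 (unadjusted *P* = 0.0563 from limma).

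*Cldn11* ranged from 2.28 to 2.83 in IF1-KO, from 2.59 to 3.12 in CRL and from 2.70 to 2.98 in IF1-TG mice. *Mog* ranged from -0.11 to 0.53, from 0.33 to 0.60 and from 0.27 to 0.73 in the same order. Both genes overlapped in every pair of genotypes, with differences between IF1-KO and IF1-TG mice of 0.27 (*Cldn11*, standard error 0.20) and 0.32 (*Mog*, standard error 0.19). With the array labelled IF1-KO replicate 1 set aside, the difference of *Cldn11* was 0.39 and that of *Mog* 0.48 (unadjusted *P* = 0.0359 from limma), still short of the fold change.

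*Mag* had nearly equal means in IF1-TG and IF1-KO mice and a higher mean in CRL mice. Its values were 3.98, 3.85 and 4.13 in IF1-KO, 4.58, 3.997 and 4.41 in CRL, and 4.43, 3.78 and 3.58 in IF1-TG mice. The IF1-TG arrays spanned most of the range of all 9 arrays, so the genotypes overlapped. The difference from CRL mice was -0.40 for IF1-TG and -0.34 for IF1-KO mice (standard error 0.24 for both). Without IF1-TG replicate 1 the former was -0.65 and passed the rule (unadjusted *P* = 0.0110 from limma), but dropping IF1-TG replicate 3 gave -0.23 (unadjusted *P* = 0.380 from limma). IF1-TG and IF1-KO mice differed by -0.059, and by -0.36 with slide as a fixed block (unadjusted *P* = 0.359 from limma). Setting aside the array labelled IF1-KO replicate 1 left -0.064 (IF1-TG against IF1-KO) and -0.33 (IF1-KO against CRL).

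*Cnp* was the member with the smallest standard error, and the one whose IF1-TG arrays overlapped neither other genotype. Its values were 2.94, 2.70 and 2.85 in IF1-KO, 2.82, 2.79 and 3.00 in CRL, and 3.39, 3.12 and 3.44 in IF1-TG mice. The lowest IF1-TG array exceeded the highest array of the other genotypes by 0.118. The difference was 0.49 from IF1-KO mice (1.40-fold, standard error 0.13, unadjusted *P* = 0.00532 and adjusted *P* = 0.680 from limma) and 0.45 from CRL mice (1.36-fold, standard error 0.13, unadjusted *P* = 0.00859 and adjusted *P* = 0.490 from limma). Both were under the fold change required. IF1-KO and CRL mice differed by -0.042 (95% interval -0.34 to 0.26). On slide 2, which holds all genotypes, *Cnp* was higher in IF1-TG mice by 0.50 (against 1 IF1-KO array) and by 0.64 (against 2 CRL arrays), values without a test. With slide as a fixed block, *Cnp* was called in place of *Ermn* (0.62, unadjusted *P* = 0.0248 from limma), and without IF1-TG replicate 2 it was called beside *Ermn* (0.59). With normexp and quantile normalization the differences of IF1-TG mice were smaller, 0.34 from IF1-KO mice (unadjusted *P* = 0.0532 from limma) and 0.28 from CRL mice (unadjusted *P* = 0.102 from limma). *Cnp* differed by 0.54 between IF1-KO and IF1-TG mice, not called, with the array labelled IF1-KO replicate 1 set aside.

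*Ugt8a* showed another order, with CRL mice highest. Its values were -0.51, -0.86 and -0.50 in IF1-KO, 0.27, -0.36 and 0.03 in CRL, and -1.42, -0.06 and -0.38 in IF1-TG mice. All IF1-KO arrays lay below all CRL arrays, and the IF1-TG arrays spanned nearly the whole range. The difference from CRL mice was -0.61 for IF1-KO and -0.60 for IF1-TG mice (standard error 0.33, unadjusted *P* = 0.106 and 0.109 from limma), over the fold change required but not past the *P* value. IF1-TG and IF1-KO mice differed by 0.0055 (95% interval -0.76 to 0.77), which leaves a wide margin. Leaving out IF1-TG replicate 1, the lowest array, narrowed the spread and put the difference between IF1-KO and CRL mice past the rule (unadjusted *P* = 0.0167 from limma). Without IF1-TG replicate 2, the highest IF1-TG array, the difference of IF1-TG from CRL mice was -0.88 and called, whereas dropping IF1-TG replicate 1 gave -0.20 (unadjusted *P* = 0.398 from limma) and with slide as a fixed block -0.38 (unadjusted *P* = 0.512 from limma). IF1-KO mice differed by -0.66 from CRL mice, not called, with the array labelled IF1-KO replicate 1 set aside.

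*Ermn*, by its brightest probe, had values of 1.25, 1.30 and 0.64 in IF1-KO, 1.57, 1.85 and 0.82 in CRL, and 2.06, 1.79 and 2.22 in IF1-TG mice. All IF1-TG arrays lay above all IF1-KO arrays and CRL mice were in between, overlapping both. It was 1.94-fold higher in IF1-TG mice than in IF1-KO mice (log2 difference 0.96, standard error 0.29, 95% interval 0.30 to 1.61, unadjusted *P* = 0.00936 and adjusted *P* = 0.680 from limma). With the array labelled IF1-KO replicate 1 set aside, the difference was 1.05 (unadjusted *P* = 0.0145 from limma), and it stayed past the rule without each other array in turn (0.75 to 1.08). On slide 2 alone it was 0.97 (1 array each). With slide as a fixed block it was 0.76 and not called (unadjusted *P* = 0.0778 from limma). The difference from CRL mice was 0.61 (unadjusted *P* = 0.0658 from limma), and 0.82 and called without CRL replicate 2. Dropping CRL replicate 3 gave 0.31 (unadjusted *P* = 0.235 from limma), and the mean of both probes gave 0.10 (unadjusted *P* = 0.522 from limma).

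**Figure D2:**
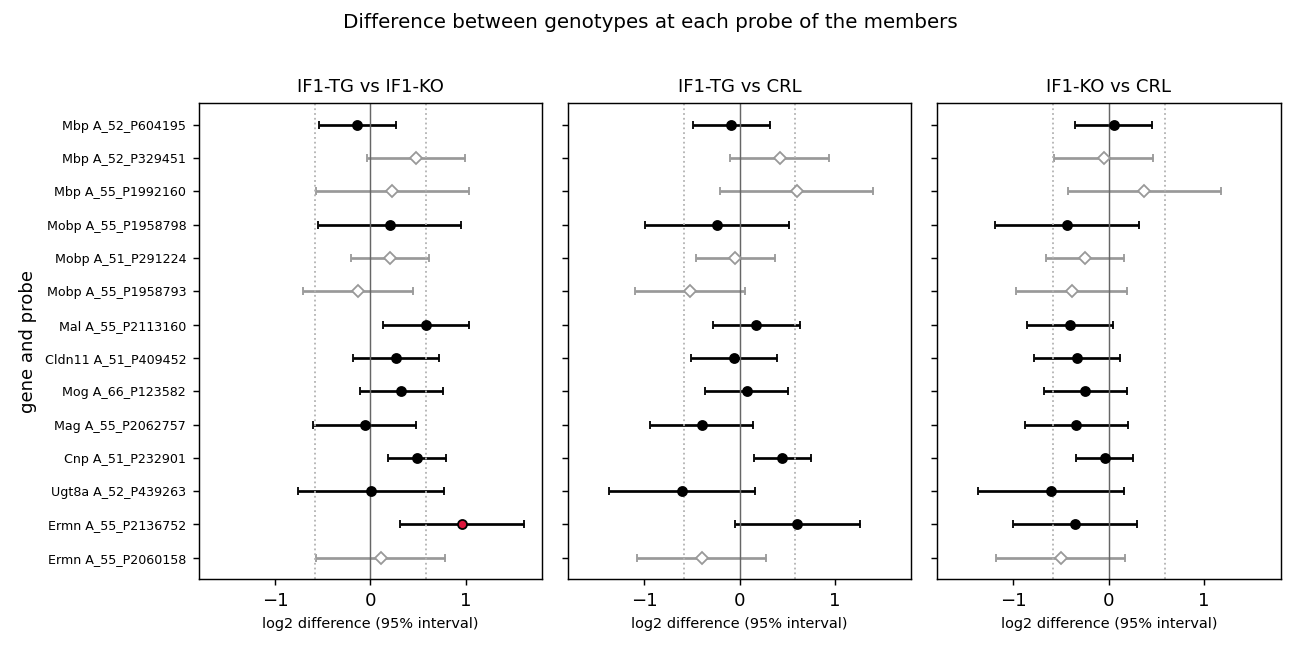
Log2 difference between genotypes (x axis, with 95% intervals from limma) at each of the 14 probes of the 9 genes, in 1 panel per comparison, with filled circles for the brightest probe of a gene, open diamonds for other probes, red for a called probe and dotted lines at a fold change of 1.5. The single called probe is that of *Ermn* between IF1-KO and IF1-TG mice (0.96), and the other *Ermn* probe lies at 0.11.

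The call for *Ermn* depended on the probe. The other *Ermn* probe, which has no repeat, gave 1.58, 0.52 and 1.33 in IF1-KO, 1.82, 1.199 and 1.92 in CRL, and 1.28, 1.45 and 1.01 in IF1-TG mice. Here CRL mice had the highest mean and the genotypes overlapped, with a difference between IF1-KO and IF1-TG mice of 0.11 (standard error 0.30, unadjusted *P* = 0.730 from limma). The mean log2 signals that decided which probe stood for the gene lay 0.156 apart. Across the 9 arrays the probes correlated with r = -0.29. The other probe followed the mean of the remaining 8 members (r = 0.90 over 9 arrays), whereas the probe with the repeat did not (r = 0.076). With the mean of both probes, *Ermn* differed by 0.53 between IF1-KO and IF1-TG mice, under the fold change required.

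The array held 51 probes with AAG at least 5 times in a row, a run looked for after the values of *Ermn* had been seen. Of these, 49 besides the *Ermn* probe were kept, for 48 gene names and none for another member or a gene of the oligodendrocyte lists. Between IF1-KO and IF1-TG mice, 18 of the 49 were called higher and 0 lower (36.7%, against 1.66% higher and 2.05% lower of the 27961 kept probes without the run), with a median difference of 0.42 (0.39 with the array labelled IF1-KO replicate 1 set aside). Against CRL mice, 9 were called higher in IF1-TG mice (18.4%, against 2.21% of the probes without the run) and 0 lower. Between IF1-KO and CRL mice 0 were called higher and 1 lower (2.04%, against 0.426%). The 49 probes did not move alike, with differences from -1.51 to 2.17, and their mean followed the *Ermn* probe with r = 0.26 over 9 arrays. The part of the repeat in the *Ermn* result was not tested.

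**Figure D3:**
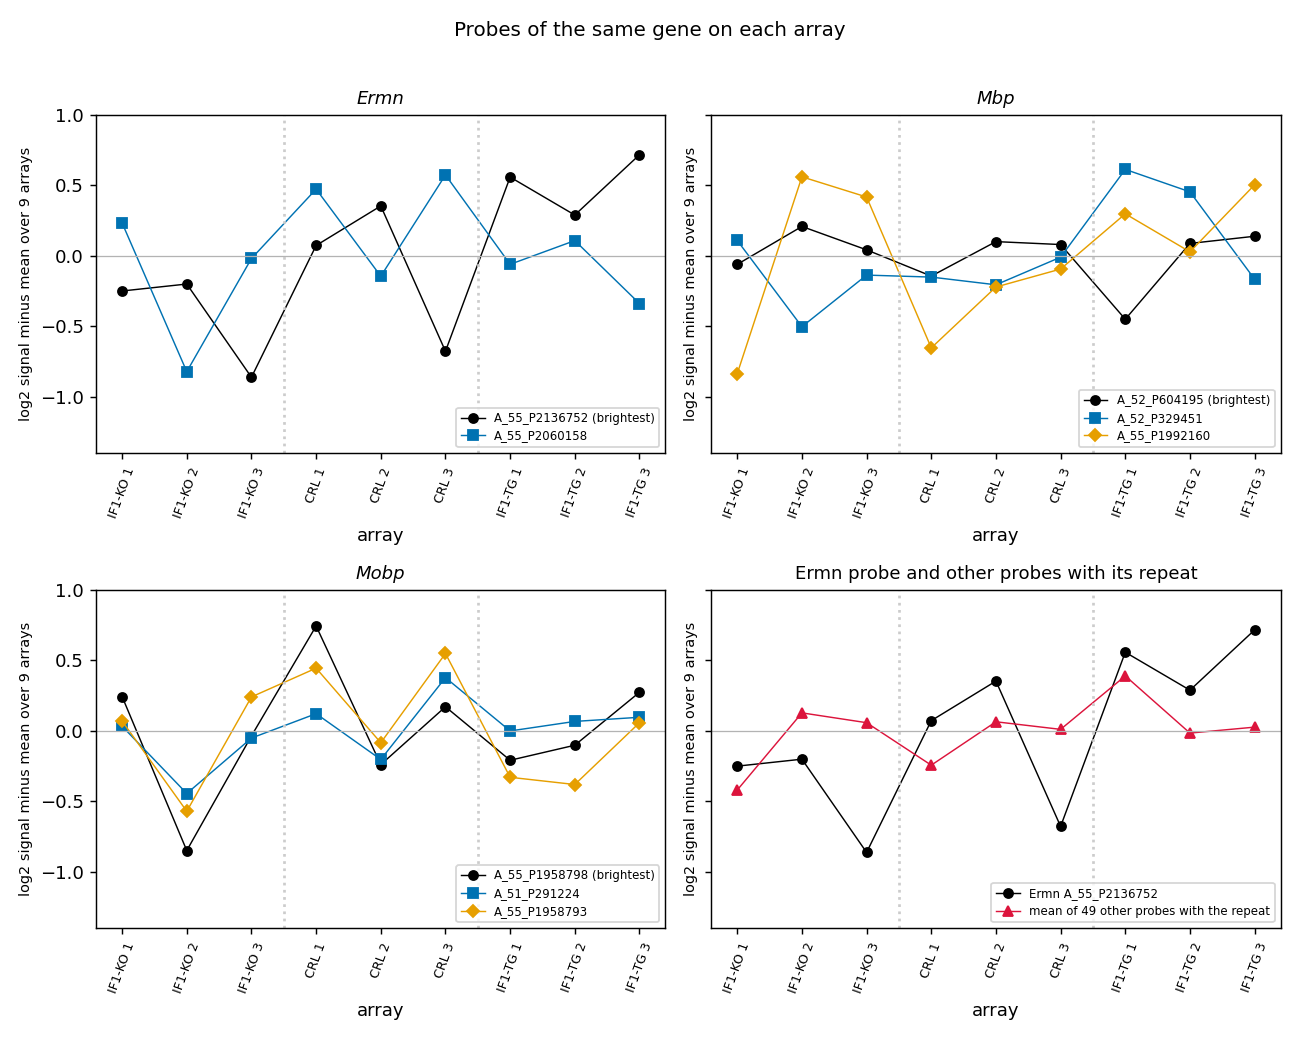
Log2 signal minus the probe's own mean over 9 arrays (y axis) on each array (x axis, dotted lines between genotypes) for the probes of *Ermn*, *Mbp* and *Mobp*, and for the *Ermn* probe with the AAG repeat beside the mean of 49 other probes with it. The 3 *Mobp* probes move together, with IF1-KO replicate 2 lowest, whereas the probes of *Ermn* and of *Mbp* do not.

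The probes of *Mbp* also disagreed. Besides the brightest probe (-0.14), the second gave a difference between IF1-KO and IF1-TG mice of 0.48 (standard error 0.23, unadjusted *P* = 0.0667 from limma) and the third 0.23 (standard error 0.35). The first and second, the brighter pair, correlated with r = -0.68 over 9 arrays, and the other pairs with -0.12 and 0.24. The probes are annotated to different sets of *Mbp* transcripts. In contrast, the 3 *Mobp* probes correlated with r = 0.73 to 0.79, and their differences were 0.20, 0.21 and -0.13.

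Against CRL mice, IF1-TG mice had 0 of 9 members called, where 4.31% of all genes were called. The unadjusted *P* value of limma was below 0.05 for 1 member, *Cnp*, and for 1796 genes in all. *Cnp* was also the member whose arrays did not overlap (1 of 9, with 12.1% of all genes). Of the 9 members 4 had a difference above 0, and the median was -0.063 (-0.00086 over all genes).

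Between IF1-KO and CRL mice, 0 of 9 members were called by limma, where 0.999% of all genes were called. The unadjusted *P* value was below 0.05 for 0 members and 569 genes in all. The arrays did not overlap for *Ugt8a* (1 of 9, with 8.06% of all genes). Of the 9 members 8 were lower in mean in IF1-KO mice, all but *Mbp* by its brightest probe (0.051), with a median of -0.34 (-0.0083 over all genes). The second *Mbp* probe was lower in IF1-KO mice (log2 difference -0.055), whereas the third, the dimmest, was higher (0.37, standard error 0.35). The mean of the *Mbp* probes was also higher (0.12). With the array labelled IF1-KO replicate 1 set aside, the median was -0.45, and 1 member (*Mal*) and 1.57% of all genes were called. This comparison shares the IF1-KO arrays with that of IF1-TG against IF1-KO mice, and the same low arrays enter both.

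The mean of the members differed between arrays of the same genotype, most in IF1-KO and least in IF1-TG mice. When each gene was centred on its own mean over 9 arrays, the mean of the 9 members was -0.015, -0.40 and -0.18 for IF1-KO, 0.26, -0.036 and 0.092 for CRL, and 0.048, 0.13 and 0.10 for IF1-TG arrays. IF1-KO replicate 2 was the lowest array for 5 of 9 members and below the gene's mean for 8 of 9, and CRL replicate 1 was the highest array for 3. This mean had an SD of 0.043 over the IF1-TG arrays, 0.19 over the IF1-KO and 0.15 over the CRL arrays, although for *Ugt8a*, *Mag*, *Mbp* and *Cnp* the SD was largest in IF1-TG mice (0.72, 0.44, 0.33 and 0.17). The median member difference between IF1-KO and IF1-TG mice was 0.11 without IF1-KO replicate 2, and 0.43 with the array labelled IF1-KO replicate 1 set aside. On slide 2 alone, with 1 array each, it was 0.031, with 6 of 9 members above 0. Between IF1-KO and CRL mice the median was -0.023 on slide 2 and -0.42 on slide 3, the slide that holds IF1-KO replicates 2 and 3.

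**Figure D4:**
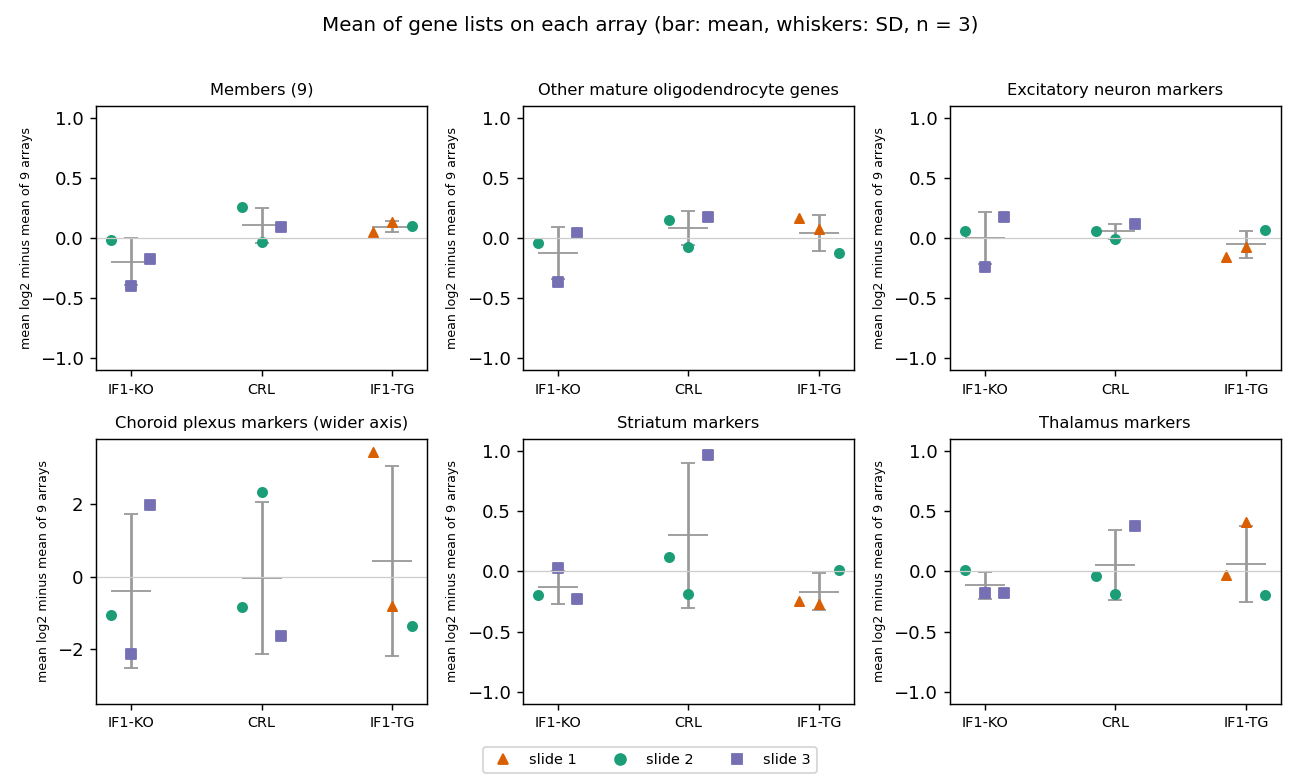
Mean log2 signal of 6 gene lists minus its mean over 9 arrays (y axis, a wider axis for choroid plexus) in each genotype, with 1 point per array, shape and colour for the slide, and bars for the mean and SD of 3 arrays. The members run from -0.40 (IF1-KO replicate 2) to 0.26 (CRL replicate 1), and the choroid plexus markers differ most between arrays of the same genotype.

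Over the 9 arrays, which share genotype and array effects, the 36 pairs of members correlated with a median r of 0.30, from -0.65 to 0.93. There were 10 pairs with r above 0.5 and 12 below 0. The closest were *Mal* with *Mog* (0.93), *Cldn11* with *Mog* (0.87), *Cldn11* with *Mal* (0.83) and *Cldn11* with *Mobp* (0.74). *Cnp* and *Ermn*, by the probe with the repeat, correlated with each other (0.60), and *Mbp*, by its brightest probe, was negative with all members but *Ugt8a* (0.43). This depended on the probe, as the brightest *Mbp* probe correlated with the mean of the other members with r = -0.48, the second, nearly as bright, with r = 0.55 and the third, the dimmest, with r = -0.50.

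**Figure D5:**
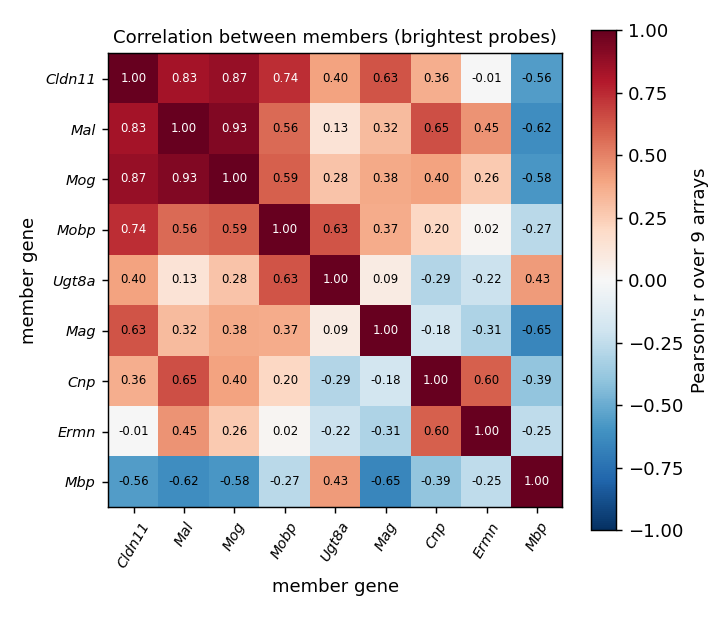
Pearson's r over 9 arrays for each pair of the 9 genes by their brightest probes (both axes, colour from -1 to 1, r printed in each cell). *Cldn11*, *Mal*, *Mog* and *Mobp* form a block with r from 0.56 to 0.93, and the row of *Mbp* is mostly negative.

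Other genes of oligodendrocytes and myelin were taken from 8 lists with 118 genes tested. Of these, 2 were called between IF1-KO and IF1-TG mice, 1 in each direction, and 0 in either other comparison, which is 1.69%, 0% and 0% against the 3.65%, 4.31% and 0.999% of all genes given above. With slide as a fixed block, 10 were called between IF1-TG and CRL mice, where 7.29% of all genes were called. *Itgb4*, an integrin subunit also present in mature oligodendrocytes, was -0.69, -0.76 and -0.42 in IF1-KO and 0.21, 0.17 and -0.42 in IF1-TG mice (difference 0.61, standard error 0.18, unadjusted *P* = 0.00960 and adjusted *P* = 0.680 from limma). *Fyn*, a Src-family kinase that acts in oligodendrocyte maturation and also in neurons, was -0.57, -0.55 and -0.52 in IF1-KO and -1.87, -1.25 and -1.02 in IF1-TG mice (difference -0.83, standard error 0.27, unadjusted *P* = 0.0149 and adjusted *P* = 0.680 from limma). All IF1-TG arrays lay above (*Itgb4*) or below (*Fyn*) all IF1-KO arrays, for *Itgb4* by 0.0022 only (replicate 3 of each genotype). *Itgb4* was no longer called when replicate 1 or 2 of either genotype was dropped, the array labelled IF1-KO replicate 1 included, and *Fyn* when IF1-TG replicate 1 was dropped, and neither was called with slide as a fixed block. *Fyn* stayed called (-0.84) with the array labelled IF1-KO replicate 1 set aside. In that fit 3 of 118 list genes were called between IF1-KO and IF1-TG mice, where 4.55% of all genes were, namely *Fyn*, *Enpp6* (1.103) and *Zfp536* (0.69). Between IF1-KO and CRL mice 2 of 118 were called, *Enpp6* (-1.24) and *Anln*, where 1.57% of all genes were, so neither count stood out from the background. These genes were named after their values were seen.

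The 27 other genes of mature oligodendrocytes had a median difference of 0.19 between IF1-KO and IF1-TG mice (20 above 0) and of -0.20 between IF1-KO and CRL mice (3 above 0), with 1 and 0 called. Against CRL mice, the IF1-TG medians of these and of the other myelin protein genes were near 0 (-0.020 and 0.049). The 11 other myelin protein genes had medians of 0.23 (8 above 0) and -0.17 (3 above 0), with 0 called. Among them *Gjb1*, a connexin of oligodendrocytes, differed by 0.38 between IF1-KO and IF1-TG mice (standard error 0.19, unadjusted *P* = 0.0734 from limma). *Anln*, a septin-binding protein of myelin, was lower in mean in IF1-KO than in CRL mice by a log2 difference of -0.55 (unadjusted *P* = 0.0492 from limma), under the fold change, and it passed the rule without the array labelled IF1-KO replicate 1 (-0.65).

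Among lipid genes, the 11 of galactolipid and fatty acid synthesis had a median of 0.038 between IF1-KO and IF1-TG mice (7 above 0) and -0.077 between IF1-KO and CRL mice (2 above 0), with 0 called. The 21 genes of cholesterol synthesis, which supplies the main lipid of myelin and is also active in astrocytes and neurons, had medians of -0.066 (7 above 0) and 0.17 (15 above 0), with 0 called. *Sqle*, squalene epoxidase, differed by 0.51 between IF1-KO and CRL mice (standard error 0.23, unadjusted *P* = 0.0518 from limma). Between IF1-TG and CRL mice the median of the cholesterol genes was 0.12 (14 above 0).

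The 11 transcription factors of the lineage had medians of 0.062 between IF1-KO and IF1-TG mice (7 above 0) and -0.11 between IF1-KO and CRL mice (2 above 0), with 0 called. *Sox10*, a factor required for terminal differentiation, differed by 0.24 (standard error 0.12) between IF1-KO and IF1-TG mice, and *Olig2*, a factor that specifies the lineage, by -0.028 (standard error 0.13). *Tcf7l2*, which acts in differentiating cells, was not called by its brightest probe (0.062) but was by another of its probes (1.34). Between IF1-TG and CRL mice it was also called only when any probe was counted (1.11) or with the mean of its probes (0.71), or with slide as a fixed block (0.71). *Tcf7l2* also stands among the thalamus markers below, there by its brightest probe. The 14 genes of precursors and newly formed cells had medians of 0.076 (9 above 0) and -0.055 (6 above 0), with *Fyn* the 1 called. *Pdgfra*, the growth factor receptor of precursors, differed by 0.044 (standard error 0.11) between IF1-KO and IF1-TG mice. The 10 genes of signals that control myelination had medians of 0.12 and -0.023, and the 13 genes of the axonal node and paranode of -0.054 and -0.0021, with 0 called in both lists. Setting aside the array labelled IF1-KO replicate 1, the medians between IF1-KO and IF1-TG mice were 0.25 (other mature oligodendrocyte genes), 0.38 (other myelin proteins), 0.16 (galactolipid and fatty acid synthesis), -0.047 (cholesterol synthesis), 0.20 (transcription factors), 0.16 (precursors and newly formed cells), 0.041 (signals) and 0.026 (node and paranode). Those between IF1-KO and CRL mice were -0.31, -0.22, -0.18, 0.17, -0.21, -0.15, -0.062 and 0.0065 in the same order.

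Genes outside the members whose pattern over the 9 arrays was most like the members' mean were *Spon1* (r = 0.949), *Insc* (0.942), the transcripts NAP111376-1, *Dupd1* and AK033778, *Anln* (0.915), *Gjb1* (0.914) and *Klk6* (0.911). *Anln* and *Gjb1* stand in the lists above. Of other list genes, *Qdpr* ranked 20, *Trf* 42 and *Sox10* 158 of 21668 genes. Others of the same lists ranked far lower, such as *Opalin* (7984), *Tcf7l2* (14384), *Tppp* (16989, r = -0.31) and *Omg* (17013, r = -0.31). An r above 0.7 was found for 5 of 10 other myelin protein genes, 11 of 26 other mature oligodendrocyte genes, 2 of 11 transcription factors and 0 of 21 genes of cholesterol synthesis, and for 3.84% of all genes. It was also found for 4 of 14 genes of precursors and newly formed cells. The counts were 1 of 11 for galactolipid and fatty acid synthesis, 0 of 10 for signals and 1 of 13 for the node and paranode. Among markers of other cells, it was found for 1 of 10 astrocyte, 1 of 9 microglia and 1 of 11 excitatory neuron genes. These are descriptions over arrays that also share the genotype.

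Markers of other cells and of neighbouring tissue differed between arrays. The 9 choroid plexus markers had array means of -3.28 to 0.82 in IF1-KO, -2.79 to 1.18 in CRL and -2.51 to 2.30 in IF1-TG mice. All 9 were higher in mean in IF1-TG mice than in IF1-KO mice, with a median of 0.89, and 0 were called. The highest choroid plexus array was IF1-TG replicate 1, and the lowest was IF1-KO replicate 2, which was also the lowest for the members. IF1-KO replicate 3 and CRL replicate 2, also high in these markers (0.82 and 1.18), had member means of -0.18 and -0.036, and none of the 9 choroid plexus genes had r above 0.7 with the members' mean. Striatal markers were highest on CRL replicate 3 (0.34, against -0.90 to -0.51 on the other arrays). *Adora2a*, the adenosine receptor of striatal neurons, was the 1 of 9 striatal markers called against CRL mice. It was lower in IF1-KO (-1.16, unadjusted *P* = 0.0226 from limma) and IF1-TG mice (-0.96, unadjusted *P* = 0.0483 from limma). Its values were -3.95, -4.09 and -4.26 in IF1-KO, -3.35, -3.61 and -1.87 in CRL, and -4.10, -4.13 and -3.48 in IF1-TG mice. CRL replicate 3 thus stood apart from the other CRL arrays. Without CRL replicate 3, *Ermn* by the probe with the repeat was called lower in IF1-KO than in CRL mice (-0.65), which it was not with all arrays (-0.35). On that array the probe with the repeat was at 0.82, the lowest of the CRL arrays, and the other *Ermn* probe at 1.92, its highest of 9 arrays.

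Between IF1-KO and IF1-TG mice, 0 genes were called among the markers of astrocytes (10 genes, median 0.13), microglia (10, 0.074), endothelium (7, -0.19), hippocampal excitatory neurons (11, 0.030), interneurons (9, -0.068), thalamus (8, 0.15) and blood (4, -0.32). Excitatory neuron markers had array means from -0.17 to 0.25 in IF1-KO, 0.070 to 0.19 in CRL and -0.080 to 0.14 in IF1-TG mice, with IF1-KO replicate 2 the lowest. The part of tissue or cell composition in the members' values was not tested.

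Of the 9 genes 8 had promoters in the RefSeq table (10 promoters, GRCm38.p6), and the 250 bases before each start were searched on both strands. ACAAAG, the core bound by Sox factors such as Sox10, was present in 4 of the 10 promoters, of *Cnp*, *Mag* and *Mobp* (3 genes), against 16.5% of all 32851 promoters. The matching *Mag* windows overlap and hold the same 1 match, which is thus counted for both. The *Mobp* window (chr9:120149492-120149741, plus strand) is shown because it holds the letters 6 times, and it was the 1 promoter of 32851 with so many. The matches are in capitals and all lie as CTTTGT on the strand shown.
Mobp: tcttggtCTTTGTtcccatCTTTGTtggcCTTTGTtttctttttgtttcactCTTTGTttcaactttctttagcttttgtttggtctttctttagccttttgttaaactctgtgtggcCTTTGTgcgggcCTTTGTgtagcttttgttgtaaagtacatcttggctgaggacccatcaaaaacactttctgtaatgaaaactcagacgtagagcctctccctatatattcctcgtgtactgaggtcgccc
ACAATG, a variant of the same core, was found in 1 of the 10 promoters (*Ermn*, against 10.69% of all), GGGCGG, the GC box, in 2 (*Cnp* and *Ugt8a*, against 32.7%), and CAGCTG (an E-box) and TATAAA (the TATA box) in 0 (13.0% and 12.4% of all). The promoters of *Cldn11*, *Mal* and *Mog*, the members that varied most alike, held none of the letters searched. A match describes these letters and not a bound site.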

How the data were processed

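Hippocampal RNA of 9 mice was hybridized to one-colour Agilent arrays. The authors deposited spot intensities from Feature Extraction 10.7.3.1, corrected within each array for background and for spatial trends, without normalization between arrays. The deposited mean and background intensities, uncorrected, served an alternative. The deposited flags mark spots well above background, saturated (0) or outlying.

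The intensity was taken to log2 minus the array's 75th percentile. Control spots and outliers were dropped, and repeated spots were averaged. A probe was kept if the flag for background was met by all 3 arrays of any genotype (28011 of 39429 probes, 21924 gene names, each given by its brightest probe). All 9 arrays entered a linear model of genotype (limma 3.58.1, R 4.3.3, eBayes), tested on simulated data. *P* values are two-sided, and the number of arrays limits the precision. Genes are named from the array's annotation, and the rule names the members, *Atpif1*, listed genes past the thresholds, and the 8 genes most like the members' mean. Other list genes and the AAG run were chosen after their values were seen. The members and lists were chosen with earlier results of these data known. Alternatives were other normalizations, filters, probe rules and eBayes options, slide or replicate number as a block, only the genotypes compared, and each array left out. Columns of other measurements in the files were not used here. Some results are not reported here.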

Additional observations from a re-analysis of the deposited data

How the results depend on the processing

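Under the alternatives, 147 values of the counts of calls and member medians stayed near the reported value and 40 moved. The reported counts are in parentheses. The count of members called between IF1-KO and IF1-TG mice (1) was 0 with the mean of a gene's probes and 0 at an adjusted *P* value below 0.05. Calls in the oligodendrocyte lists (2) were 1 with normexp and quantile normalization, 4 with any probe counted and 0 after adjustment. Those between IF1-TG and CRL mice (0) were 1 without the filter on dim probes, 10 with slide as a fixed block, 1 with the mean of probes and 2 with any probe. Between IF1-KO and CRL mice, 1 member (*Ugt8a*) was called with only these genotypes fitted, and the lists (0) gave 1 each with normexp and quantile normalization, without the filter and with any probe. The member median moved from 0.27 to 0.031 and from -0.34 to -0.023 within slide 2, and from -0.063 to 0.073 (IF1-TG against CRL) with the mean of probes. Within a slide, counts of calls have no value.

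Leaving out each array in turn, the members called were 1 to 2 (IF1-TG against IF1-KO), 0 to 1 (IF1-TG against CRL) and 0 to 1 (IF1-KO against CRL). The list calls were 0 to 5, 0 to 3 and 0 to 3, and the member medians 0.11 to 0.43, -0.095 to 0.035 and -0.45 to -0.17, in the same order. A fit without IF1-KO replicate 1 called 4.55%, 4.08% and 1.57% of all genes in these comparisons. With every array the shares were 3.65%, 4.31% and 0.999%. For the other arrays left out the shares are not given here, so those counts have no background to be set against.

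Single genes changed sign as follows. With slide as a fixed block, *Mbp* was 0.17 and *Mog* -0.10 between IF1-KO and IF1-TG mice, and *Mal* -0.11, *Mbp* 0.17 and *Mog* -0.27 between IF1-TG and CRL mice. With the mean of probes, *Mbp* was 0.19 and 0.31 in these comparisons. With normexp and quantile normalization together, *Ugt8a* was -0.088 (IF1-TG against IF1-KO), *Mog* -0.0085 (IF1-TG against CRL) and *Mbp* -0.081 (IF1-KO against CRL). Between arrays left out, the ranges crossed 0 for *Mag* (-0.31 to 0.11), *Mbp* (-0.24 to 0.050), *Mobp* (-0.12 to 0.43) and *Ugt8a* (-0.28 to 0.41) between IF1-KO and IF1-TG mice, for *Cldn11* (-0.23 to 0.028), *Mbp* (-0.19 to 0.10), *Mobp* (-0.47 to 0.022) and *Mog* (-0.022 to 0.21) between IF1-TG and CRL mice, and for *Cnp* (-0.098 to 0.025) and *Mbp* (-0.027 to 0.11) between IF1-KO and CRL mice. Within slide 2, which gives values without a test, *Cldn11* was -0.13, *Mog* -0.26 and *Mbp* 0.20 between IF1-KO and IF1-TG mice, *Mal* -0.010, *Mog* -0.20, *Mbp* 0.16 and *Mobp* 0.021 between IF1-TG and CRL mice, and *Cnp* 0.14, *Mog* 0.063 and *Mbp* -0.039 between IF1-KO and CRL mice. Within slide 3, *Ermn* was 0.15 between IF1-KO and CRL mice. The causes were not tested.

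The deviations of arrays with the same replicate number correlated with r from -0.16 to 0.11, over 0.1 in 1 of 9 pairs, so the numbers are not taken to pair the mice. With the replicate block, the count of members called between IF1-KO and IF1-TG mice was 1 (*Ermn*, 0.96).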
